A study of Rattus norvegicus with 24 samples.

Results

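The creatine kinase and adenylate kinase system was followed through 9 genes chosen by name: the creatine kinases Ckb, Ckm, Ckmt1 and Ckmt2, the creatine transporter Slc6a8, the enzymes of creatine synthesis Gatm and Gamt, and the adenylate kinases Ak1 and Ak3. Of these 9 genes, 6 had a probe under their symbol, with 1 probe each (Ckb, Ckm, Slc6a8, Gatm, Gamt and Ak3), among 13337 named genes and 22523 probes in all. No probe was named for the mitochondrial creatine kinases Ckmt1 and Ckmt2 or for the cytosolic adenylate kinase Ak1, which were not analysed here. RNA came from the non-infarcted left ventricle (LV) of 12 female Sprague-Dawley rats aged 3 months, 4 in each of 3 groups, taken 4 weeks after surgery. MI+T4 rats had myocardial infarction (MI) from a tied left descending coronary artery and a subcutaneous pellet with 3.3 mg thyroxine (T4) released over 60 days. MI rats had the same operation and a placebo pellet, and Sham rats had the suture tied loosely and a placebo pellet. The RNA was taken from the basal slice of the ventricle, so each value is a mixture of all cell types in that slice, and fewer cells of a type cannot be told apart from less RNA per cell. Each rat was hybridized to 2 arrays. These were averaged for the levels given for each rat, while the main test kept both arrays in the fit.

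Creatine kinases move a phosphate between ATP and creatine. In muscle the cytosolic enzymes rebuild ATP from phosphocreatine beside the myosin and calcium pump ATPases, and the mitochondrial enzymes charge creatine where ATP is made. The cytosolic enzymes are dimers of muscle (M, Ckm) and brain (B, Ckb) subunits, and adult heart muscle holds mostly the M form, while the B form is prominent in the fetal heart. Heart muscle does not make its own creatine in quantity but takes it from blood through the transporter Slc6a8. Gatm makes guanidinoacetate from arginine and glycine, and Gamt methylates it to creatine. Adenylate kinases exchange phosphates among adenine nucleotides, and Ak3, in the mitochondrial matrix, uses GTP to phosphorylate AMP.

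A difference was called a change when its Benjamini-Hochberg adjusted p, taken across the 22523 probes, was under 0.05 in limma with both arrays of a rat in the fit and a common correlation of 0.243 between them. All values are deposited log2 values, and levels are given as the mean of 2 arrays for each rat. They ran from 6.88 to 16.47, with array medians between 7.81 and 7.82. The correlation of a single gene between the arrays of a rat ran from 0.184 (Gatm) to 0.842 (Slc6a8) in the 6 genes and had a median of 0.761 in the probes that passed after MI. A gene above 0.243 thus gets an SE and a p that can be too small. When the arrays of each rat were averaged before the fit, limma called 0 of 22523 probes after MI (2561 at an unadjusted p under 0.05) and 0 of the 6 genes in any comparison (4 at an unadjusted p under 0.05 after MI). Each call in the 6 genes is therefore given with the adjusted p from rat means. The p of an exact two-sided permutation test over the 8 rats compared is given as well. That p is not adjusted for the number of tests and cannot go below 0.0286. It takes this value whenever the groups do not overlap, so the 2 facts are not separate evidence. Calls in other genes were not given a permutation test.

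After MI, 4 of the 6 genes passed the test, where 3.61% of all probes did. The genes were chosen with earlier results of these data known, so these shares do not test the genes as a group. Ckb was higher in MI than in Sham rats (1.89% of all probes were called higher), and Ckm, Slc6a8 and Gamt were lower (1.72% of all probes were called lower). Gatm and Ak3 did not pass. In 2 of the 6 genes, Ckb and Gamt, MI and Sham rats did not overlap, as was so for 5.8% of all probes. The median difference of the 6 genes was -0.059 on the log2 scale, and that of all probes was -0.0044.

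**Figure D1:**
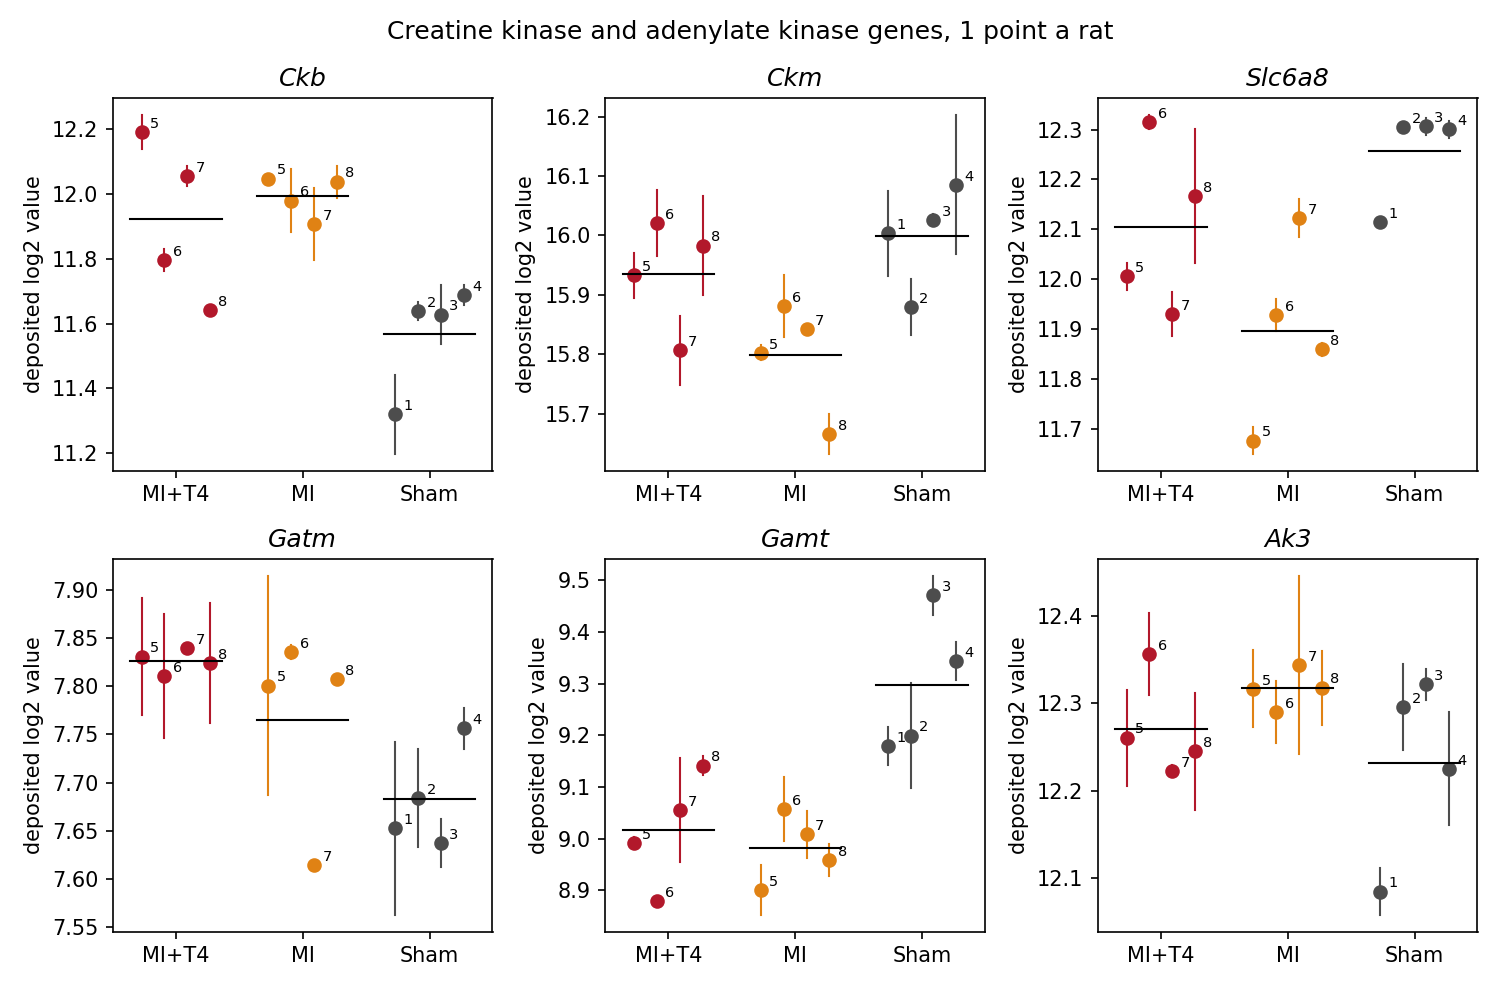
Deposited log2 value (vertical axis, a scale of its own for each gene that does not start at 0) of the 6 measured genes in MI+T4, MI and Sham rats. Points are the means of 2 arrays of a rat, labelled with its replicate number, vertical lines join its 2 arrays, and horizontal lines are group means of 4 rats; the 4 MI rats lie above the 4 Sham rats in Ckb and below them in Gamt.

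Ckb encodes the B subunit of cytosolic creatine kinase. Its log2 value was 12.05, 11.98, 11.91 and 12.04 in MI rats, against 11.32, 11.64, 11.63 and 11.69 in Sham rats. The lowest MI rat stood above the highest Sham rat, and Sham replicate 1 was well below the other Sham rats. The mean was 11.99 ± 0.065 in MI rats and 11.57 ± 0.17 in Sham rats (SD, n = 4 each), a difference of 0.42 on the log2 scale (SE 0.086) or 1.34 times the Sham mean. It passed at adjusted p = 0.00556 in limma, with adjusted p = 0.224 from rat means and exact permutation p = 0.0286, the smallest possible. The difference ran from 0.34 to 0.46 when any 1 rat was left out, and the adjusted p stayed under 0.05 in those 12 fits (0.00209 to 0.0346).

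Ckm encodes the M subunit, the main creatine kinase of striated muscle. It measured 15.80, 15.88, 15.84 and 15.67 in MI rats, against 16.00, 15.88, 16.03 and 16.09 in Sham rats. MI replicate 6 and Sham replicate 2 had the same rounded value, so the groups touched, and the other 3 Sham rats lay above all MI rats. The difference was -0.20 on the log2 scale (SE 0.057), or 0.870 times the Sham mean, at adjusted p = 0.0447. The adjusted p was 0.263 from rat means, and the exact permutation p was 0.0571. The Ckm call was the least stable of the 4: it was lost when Sham replicate 1 (adjusted p = 0.0908), 3 (0.127) or 4 (0.122), MI replicate 5 (0.129) or 8 (0.269) or MI+T4 replicate 5 (0.0600) was left out, and after quantile normalization of the deposited values (log2 -0.14, adjusted p = 0.188). The Ckm signal reached 16.20 on 1 array, near the highest value of any probe (16.47).

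Slc6a8, the creatine transporter of the cell membrane, was lower after MI. It measured 11.68, 11.93, 12.12 and 11.86 in MI rats, against 12.11, 12.31, 12.31 and 12.30 in Sham rats. Only Sham replicate 1 and MI replicate 7 met between the groups, and the other 3 Sham rats lay close together above all MI rats. The mean was 11.90 ± 0.18 in MI rats and 12.26 ± 0.095 in Sham rats (SD, n = 4 each). The difference was -0.36 on the log2 scale (SE 0.073), or 0.779 times the Sham mean, at adjusted p = 0.00572. The adjusted p was 0.228 from rat means, and the exact permutation p was 0.0571. The call was kept in all 12 fits without 1 rat, at adjusted p = 4.89e-04 to 0.0453.

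Of the pair of enzymes that make creatine, Gamt was lower after MI and Gatm did not pass. Gamt, which adds the methyl group, measured 8.90, 9.06, 9.01 and 8.96 in MI rats, against 9.18, 9.20, 9.47 and 9.34 in Sham rats. The highest MI rat lay below the lowest Sham rat. The mean was 8.98 ± 0.067 in MI rats and 9.30 ± 0.14 in Sham rats (SD, n = 4 each), a difference of -0.32 on the log2 scale (SE 0.060) or 0.803 times the Sham mean. It passed at adjusted p = 0.00370, with adjusted p = 0.174 from rat means and exact permutation p = 0.0286, and it passed in all 12 fits without 1 rat (0.00258 to 0.0235).

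Gatm, which makes guanidinoacetate, was measured close to the floor of the arrays: its mean over 24 arrays was 7.76, below the median of each array, and 46.0% of probes were dimmer. It measured 7.80, 7.84, 7.61 and 7.81 in MI rats, against 7.65, 7.68, 7.64 and 7.76 in Sham rats. The 3 higher MI rats lay above the Sham rats and MI replicate 7 lay below them, with a difference of 0.082 on the log2 scale (adjusted p = 0.518). Ak3 measured 12.32, 12.29, 12.34 and 12.32 in MI rats, against 12.08, 12.30, 12.32 and 12.22 in Sham rats. The MI rats lay close together inside and just above the Sham range. The difference was 0.085 (95% interval -0.017 to 0.19, adjusted p = 0.493).

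The 300 bases around the start of the 4 genes that passed after MI, from 250 bases before to 50 bases after it, are shown to place the genes in the genome and to show what their promoters do and do not share. They are from RefSeq on the rat assembly GRCr8 (all 6 measured genes matched), 5′ to 3′ along the gene. Capitals mark the TATA box as TATAAA, the CCAAT box, the GC box as GGGCGG and the E-box, bound by basic helix-loop-helix factors, as CANNTG. Each was searched on both strands, and no marked motif overlaps another. In all 33469 promoters of the same length, 14.2% held TATAAA, 37.5% CCAAT, 33.1% GGGCGG and 72.1% CANNTG.
Ckb promoter, chr6:136553415-136553714, minus strand: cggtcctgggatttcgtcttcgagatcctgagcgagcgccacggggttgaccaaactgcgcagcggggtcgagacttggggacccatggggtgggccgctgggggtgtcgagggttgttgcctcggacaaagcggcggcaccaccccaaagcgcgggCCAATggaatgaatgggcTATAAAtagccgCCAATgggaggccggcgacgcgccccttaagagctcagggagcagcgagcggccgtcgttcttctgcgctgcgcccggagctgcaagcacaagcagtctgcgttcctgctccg
Ckm promoter, chr1:88189211-88189510, plus strand: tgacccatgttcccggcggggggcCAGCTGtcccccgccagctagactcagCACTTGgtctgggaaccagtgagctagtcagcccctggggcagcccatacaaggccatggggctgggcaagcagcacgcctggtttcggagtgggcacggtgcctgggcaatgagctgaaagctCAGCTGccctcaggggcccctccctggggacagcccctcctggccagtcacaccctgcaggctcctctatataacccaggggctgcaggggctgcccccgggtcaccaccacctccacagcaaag
Slc6a8 promoter, chrX:156535767-156536066, plus strand: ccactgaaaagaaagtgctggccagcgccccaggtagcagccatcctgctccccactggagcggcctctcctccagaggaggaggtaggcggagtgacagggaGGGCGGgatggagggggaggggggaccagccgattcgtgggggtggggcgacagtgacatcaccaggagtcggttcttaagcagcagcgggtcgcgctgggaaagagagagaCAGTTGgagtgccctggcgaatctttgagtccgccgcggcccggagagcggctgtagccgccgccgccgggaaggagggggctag
Gamt promoter, chr7:10099034-10099333, plus strand: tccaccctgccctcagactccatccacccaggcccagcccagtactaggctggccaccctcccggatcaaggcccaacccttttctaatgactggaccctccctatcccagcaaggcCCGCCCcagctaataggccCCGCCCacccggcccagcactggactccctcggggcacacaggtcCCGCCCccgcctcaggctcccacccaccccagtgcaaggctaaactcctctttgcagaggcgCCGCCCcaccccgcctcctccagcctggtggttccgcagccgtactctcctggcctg
The Ckb window, of the gene that was higher, held 1 TATAAA at position -75 from the start, between a CCAAT at -93 and a CCAAT at -63, and none of the other motifs. The 3 genes that were lower held neither the exact TATAAA nor CCAAT in these windows. The Ckm window does hold tatataa, a near match that the exact search leaves unmarked, so a TATA box is not excluded there. Ckm had 3 E-boxes, at -226, -199 and -75. Slc6a8 had 1 GC box at -147 and 1 E-box at -35, and Gamt had 4 GC boxes, all on the opposite strand, where they read CCGCCC in the printed sequence. Gatm, which did not pass, also held 2 CCAAT in its window (at -64 and -191), so CCAAT was not particular to the gene that was higher. The letters are a description, and no binding was measured.

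Between MI+T4 and MI rats, limma called 0 of the 6 genes (2 at an unadjusted p under 0.05, and 1 with rat means) and 0% of all probes (1670 at an unadjusted p under 0.05, and 94 called by limma's nested F). The rats overlapped in all 6 genes, while 2.99% of all probes had no overlap. The MI rats are the same as in the comparison with Sham, so the directions of the pair of comparisons are not independent, and their values are given side by side only. Slc6a8 measured 12.01, 12.32, 11.93 and 12.17 in MI+T4 rats, against 11.68, 11.93, 12.12 and 11.86 in MI rats. The groups overlapped, and the difference was 0.21 on the log2 scale (95% interval 0.058 to 0.36, adjusted p = 0.423, exact permutation p = 0.143). From rat means its 95% interval was wider and included 0 (-0.0036 to 0.42). Ckm measured 15.93, 16.02, 15.81 and 15.98 in MI+T4 rats, against 15.80, 15.88, 15.84 and 15.67 in MI rats, with MI+T4 replicate 7 inside the MI range. The difference was 0.14 (95% interval 0.021 to 0.25, or 0.0056 to 0.27 from rat means, adjusted p = 0.554, exact permutation p = 0.0857).

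Ckb measured 12.19, 11.80, 12.06 and 11.64 in MI+T4 rats, 2 of them above and 2 below all MI rats (11.91 to 12.05). Its SD was 0.25 in MI+T4 rats, against 0.065 in MI rats (n = 4 each), and the difference of the means was -0.072 on the log2 scale (95% interval -0.25 to 0.10). Gamt measured 8.99, 8.88, 9.05 and 9.14 in MI+T4 rats, against 8.90 to 9.06 in MI rats, with a difference of 0.035 (95% interval -0.088 to 0.16). For Gatm the difference was 0.062 (95% interval -0.041 to 0.16) and for Ak3 -0.046 (95% interval -0.15 to 0.057). These intervals do not show that T4 left the genes as they were in MI rats.

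**Figure D2:**
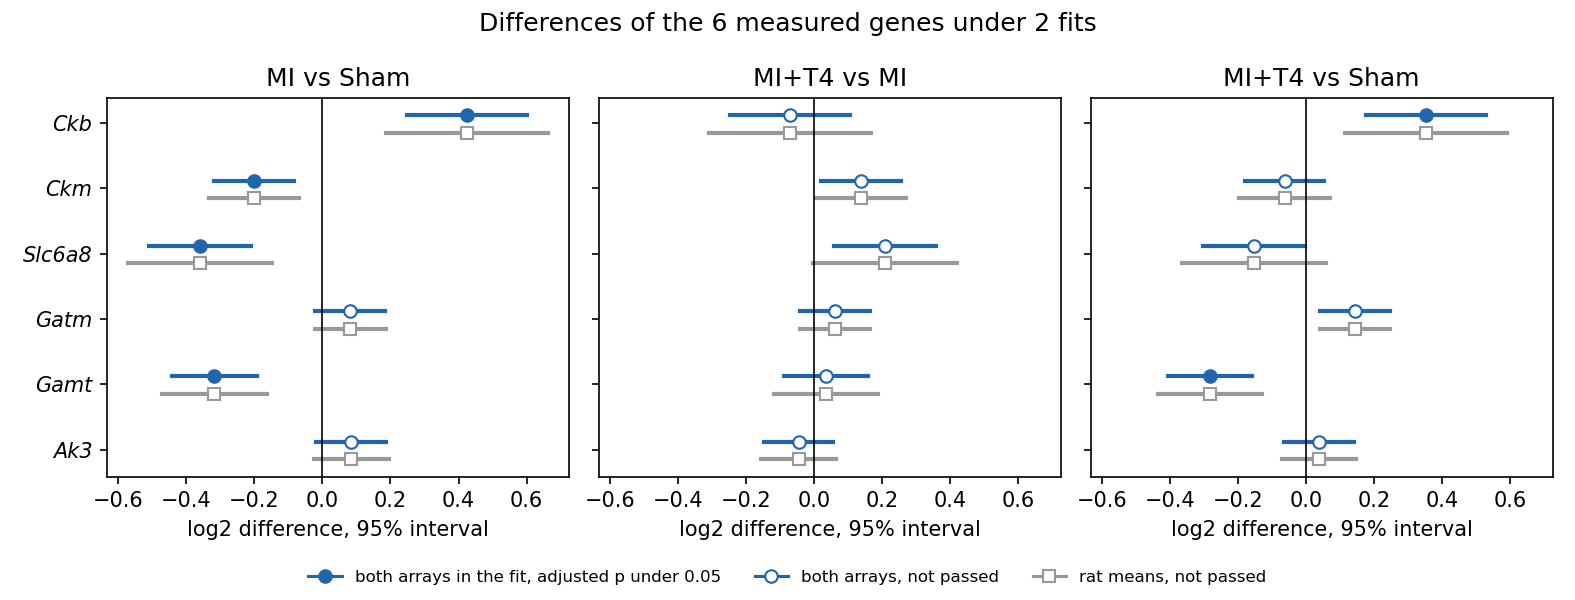
Log2 difference (horizontal axis, first named group minus the second) with 95% interval of the 6 genes in 3 comparisons. Circles are limma with both arrays of a rat (filled where the adjusted p was under 0.05) and squares the fit on rat means, in which none passed; Ckb and Gamt are filled in both comparisons with Sham.

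Compared with Sham rats, MI+T4 rats had 2 of the 6 genes past the test, where 1.26% of all probes passed (0.00444% with rat means). Ckb was higher (0.719% of all probes were called higher) and Gamt was lower (0.537% of all probes were called lower). These are 2 of the 4 genes called in MI rats against the same Sham rats. In Gamt and Gatm the MI+T4 and Sham rats did not overlap, as in 4.76% of all probes.

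Ckb averaged 11.92 ± 0.25 in MI+T4 rats and 11.57 ± 0.17 in Sham rats (SD, n = 4 each), 0.35 higher on the log2 scale (SE 0.086) or 1.28 times the Sham mean. The adjusted p was 0.0335 in limma and 0.427 from rat means, and the exact permutation p was 0.0571. MI+T4 replicate 8 (11.64) lay inside the Sham range. The call did not survive leaving out Sham replicate 1 (adjusted p = 0.145), 2 (0.0629) or 3 (0.0622), or MI+T4 replicate 5 (0.183) or 7 (0.182). Gamt averaged 9.02 ± 0.11 in MI+T4 rats and 9.30 ± 0.14 in Sham rats (SD, n = 4 each), -0.28 on the log2 scale (SE 0.060) or 0.823 times the Sham mean. The adjusted p was 0.0141 in limma and 0.306 from rat means, and the exact permutation p was 0.0286. It was no longer called without Sham replicate 3 (adjusted p = 0.0818) or 4 (0.0563) or without MI+T4 replicate 5 (0.0519) or 6 (0.0759).

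Gatm measured 7.83, 7.81, 7.84 and 7.82 in MI+T4 rats, against 7.65, 7.68, 7.64 and 7.76 in Sham rats. All MI+T4 rats were above all Sham rats (exact permutation p = 0.0286), and the difference of 0.14 on the log2 scale did not pass (adjusted p = 0.203 in limma, 0.469 from rat means). Slc6a8 differed by -0.15 (95% interval -0.30 to -0.0020, adjusted p = 0.476), Ckm by -0.063 (adjusted p = 0.850) and Ak3 by 0.039 (adjusted p = 0.914). For Slc6a8 the 95% interval from rat means included 0 (-0.36 to 0.059), and the exact permutation p was 0.257.

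**Figure D3:**
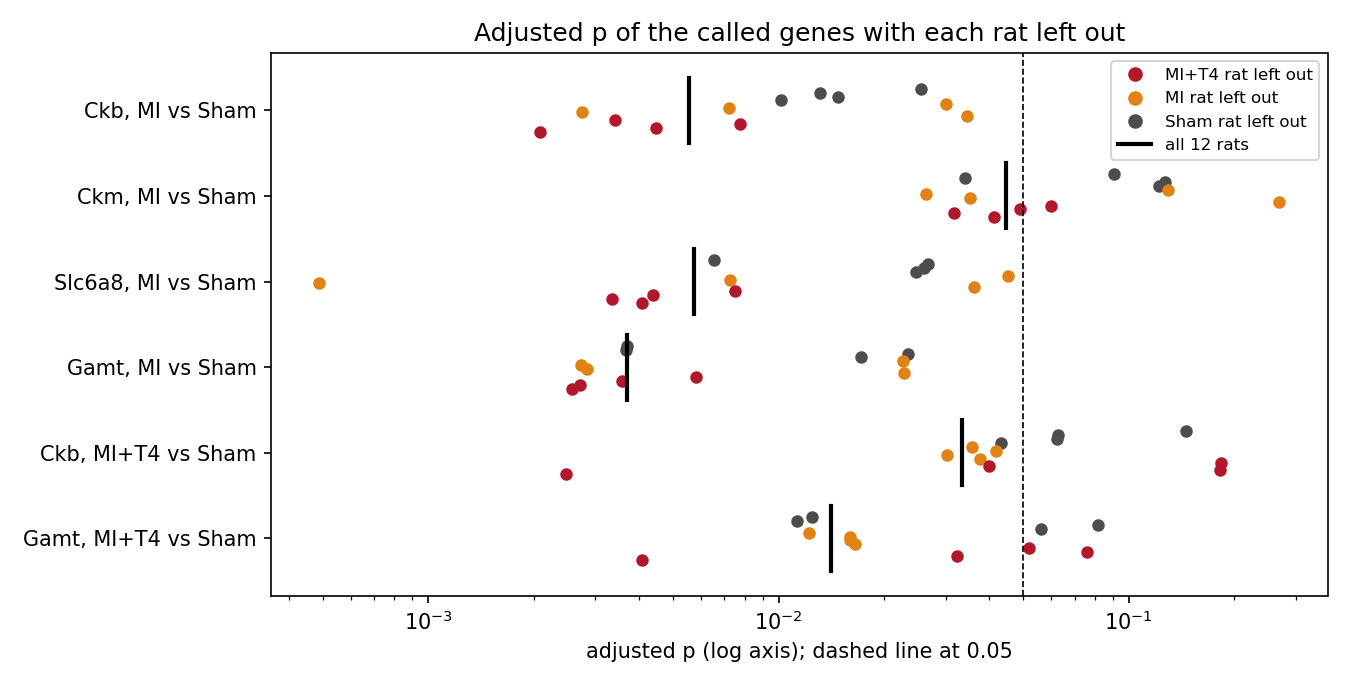
Adjusted p (horizontal log axis, dashed line at 0.05) of the 6 calls in the genes when each of the 12 rats was left out in turn. Points are coloured by the group of the rat left out and black bars give the value with all 12 rats; Ckb, Slc6a8 and Gamt in MI against Sham stay left of the line, with Ckb at 0.0346 or below, and Ckm reaches 0.269.

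Markers of other cells moved with these comparisons in limma with both arrays of a rat, and 0 genes of any of the 8 marker lists passed from rat means in any comparison. None of the 8 heart muscle markers passed in limma after MI (1 at an unadjusted p under 0.05), and the log2 of their summed signal ran from 18.39 to 18.63 in MI rats and from 18.48 to 18.62 in Sham rats. Of 8 fibroblast markers, 4 were higher after MI (Pdgfra, Col3a1, Cd248 and Pi16) and none lower. Their summed signal was 15.51 to 16.49 in MI rats and 15.37 to 15.67 in Sham rats. Of 3 measured markers of atrial muscle, 2 were higher after MI (Nppa, which ventricular muscle also makes under load, and Dkk3), and their summed signal was 14.42 to 17.12 in MI+T4 rats, 14.997 to 16.46 in MI rats and 12.51 to 15.22 in Sham rats. The atrial light chain Myl7 alone ranged from 9.29 (Sham replicate 3) to 16.14 (MI+T4 replicate 5), and it lay above the array medians in all 12 rats, although the tissue is labelled left ventricle. Between MI+T4 and Sham rats, 3 fibroblast markers were higher (Pdgfra, Cd248 and Pi16), as were Nppa and Hbb. The summed signals of the 4 endothelial markers (12.40 to 12.89 in MI rats, 12.35 to 12.49 in Sham rats), 3 smooth muscle markers (10.23 to 11.75 in MI rats, 10.26 to 11.09 in Sham rats), 3 macrophage markers (11.71 to 12.53 in MI rats, 11.34 to 12.22 in Sham rats) and 4 Schwann cell and neuron markers (9.72 to 9.80 in MI rats, 9.68 to 9.80 in Sham rats) overlapped, and none of these genes passed. Of 4 red cell markers, Hbb was higher, with a summed signal of 14.70 to 15.48 in MI rats and 14.26 to 14.65 in Sham rats. Ckb is also made by nerve, smooth muscle and other cells, and the part of any of these cells in its difference was not tested.

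Within the MI+T4 and MI groups, the 2 rats with the higher mean of 2 arrays in Ckb were the 2 lower in Slc6a8. Among MI+T4 rats, replicates 5 and 7 had the higher Ckb (12.19 and 12.06) and the lower Slc6a8 (12.01 and 11.93), with an atrial sum of 17.12 and 16.99. Replicates 6 and 8 had the lower Ckb (11.80 and 11.64) and the higher Slc6a8 (12.32 and 12.17), with an atrial sum of 14.71 and 14.42. The fibroblast sum was also higher in MI+T4 replicates 5 and 7 (15.87 and 16.04) than in 6 and 8 (15.77 and 15.46). Among MI rats, replicates 5 and 8 had the highest Ckb (12.05 and 12.04), the lowest Slc6a8 (11.68 and 11.86) and the highest fibroblast sum (16.49 and 16.17). Sham rats did not follow this order: replicate 1 was lowest in both Ckb and Slc6a8. Sham replicates 1 and 2, with the higher atrial sum (15.14 and 15.22), had a Ckb of 11.32 and 11.64 and a Slc6a8 of 12.11 and 12.31. Sham replicates 3 and 4, with an atrial sum of 12.69 and 12.51, had a Ckb of 11.63 and 11.69 and a Slc6a8 of 12.31 and 12.30. Their fibroblast sum was higher (15.65 and 15.67) than that of Sham replicates 1 and 2 (15.48 and 15.37). In a fit that left out the 3 rats with the highest collagen signal of their groups (MI replicates 5 and 8, MI+T4 replicate 7), 0 of the 6 genes passed after MI, when only 2 MI rats remained. The differences kept their direction, at 0.37 for Ckb (adjusted p = 0.165), -0.23 for Slc6a8 (0.264), -0.27 for Gamt (0.139) and -0.14 for Ckm (0.663) on the log2 scale in limma. The part of atrial or fibroblast content in the differences was not tested.

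**Figure D4:**
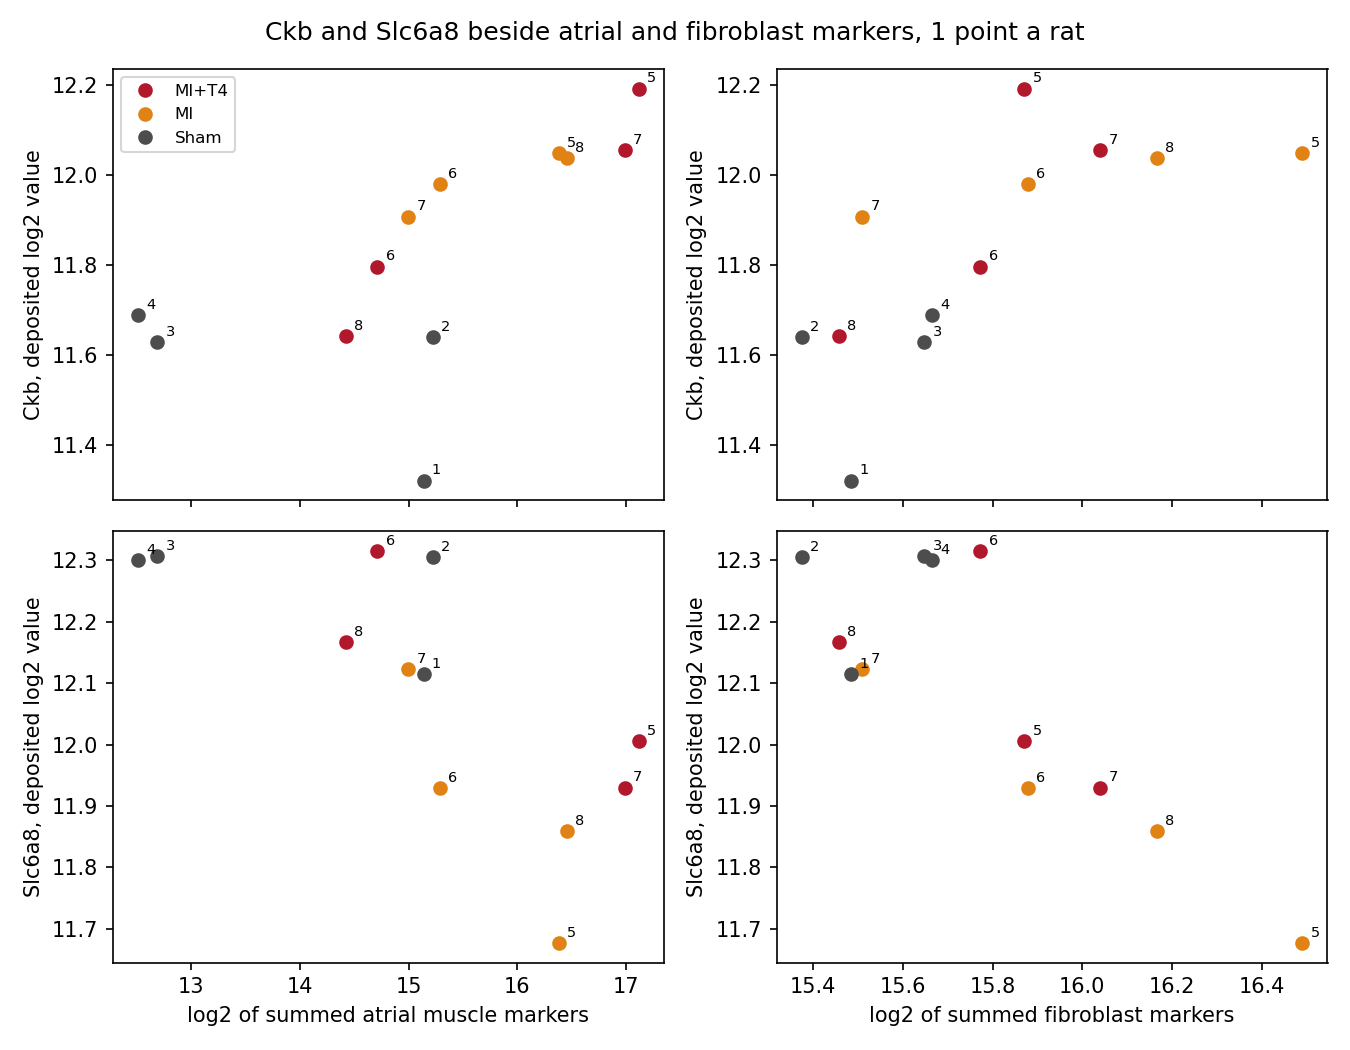
Deposited log2 value of Ckb (top) and Slc6a8 (bottom) on the vertical axis beside the log2 of the summed signal of 3 atrial muscle markers (left) or 8 fibroblast markers (right) on the horizontal axis, 1 point for each of 12 rats, coloured by group and labelled with the replicate number. Axes do not start at 0. Of the MI+T4 rats, replicates 5 and 7 stand at the highest Ckb, the lowest Slc6a8 and an atrial sum of 17.12 and 16.99.

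Genes around the system were read from 6 lists of 72 genes, of which 55 were measured. These lists too were chosen with earlier results known, so the shares below do not test them as a group. After MI, 3 of the 55 were higher and 2 lower (9.09%, where 3.61% of all probes passed), and 0 passed from rat means (11 at an unadjusted p under 0.05). The changes lay in the enzymes that break down and salvage adenine nucleotides and in 1 nucleotide kinase. Nt5e, the ectoenzyme CD73 that turns extracellular AMP into adenosine, measured 11.55, 11.11, 11.22 and 11.45 in MI rats, against 11.15, 10.93, 10.65 and 10.74 in Sham rats. Sham replicate 1 reached into the MI range, and the difference was 0.46 on the log2 scale (SE 0.086), or 1.38 times the Sham mean (adjusted p = 0.00298, 0.224 from rat means). Entpd2, which hydrolyses extracellular ATP, measured 10.85, 10.49, 10.26 and 10.48 in MI rats, against 10.04, 10.07, 10.05 and 10.28 in Sham rats, which met only in MI replicate 7 and Sham replicate 4. The difference was 0.41 on the log2 scale (SE 0.079), a fold of 1.33 over Sham (adjusted p = 0.00380, 0.218 from rat means). Without 1 rat, Nt5e and Entpd2 passed in all 12 fits.

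Nme1, a nucleoside diphosphate kinase that passes phosphate from ATP to other nucleotides, was 1.21 times the Sham mean (log2 0.28, adjusted p = 0.0252, 0.282 from rat means), and the MI and Sham rats did not overlap (11.19 to 11.56 in MI rats, 11.02 to 11.14 in Sham rats). Its call was lost without Sham replicate 1 (adjusted p = 0.0551) or 2 (0.103) or MI replicate 5 (0.112) or 8 (0.188). Adsl, adenylosuccinate lyase of the purine nucleotide cycle, was 0.857 times the Sham mean (log2 -0.22, adjusted p = 0.0480, 0.273 from rat means). Ampd1, the AMP deaminase of that cycle in muscle, was 0.868 times the Sham mean (log2 -0.20, adjusted p = 0.0498, 0.263 from rat means). The Adsl and Ampd1 calls were lost in 7 and 8 of 12 fits without 1 rat, with adjusted p up to 0.269 and 0.173. Ampd1 was dim, with a mean of 7.89 in MI rats and 8.09 in Sham rats.

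The other lists held no call after MI. Of the other nucleotide kinases, Ak4, a mitochondrial adenylate kinase relative, differed by -0.35 on the log2 scale without passing (adjusted p = 0.0753). It measured 10.87, 11.63, 11.51 and 11.08 in MI rats, against 11.66, 11.80, 11.46 and 11.57 in Sham rats. In AMPK, the kinase that senses AMP, the gamma subunit Prkag2 differed by 0.22 (adjusted p = 0.0523) and the other 7 measured genes lay between -0.094 and 0.10. Of 6 ADP/ATP carriers and channels, Vdac2 of the outer mitochondrial membrane had the smallest p (log2 -0.18, adjusted p = 0.0552). Of 11 genes of arginine and methyl donor supply, which feed Gatm and Gamt, none passed (0 at an unadjusted p under 0.05, adjusted p = 0.579 for Shmt2), and of 5 ATPases and M-line partners, beside which Ckm protein is held, none passed (0 at an unadjusted p under 0.05).

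**Figure D5:**
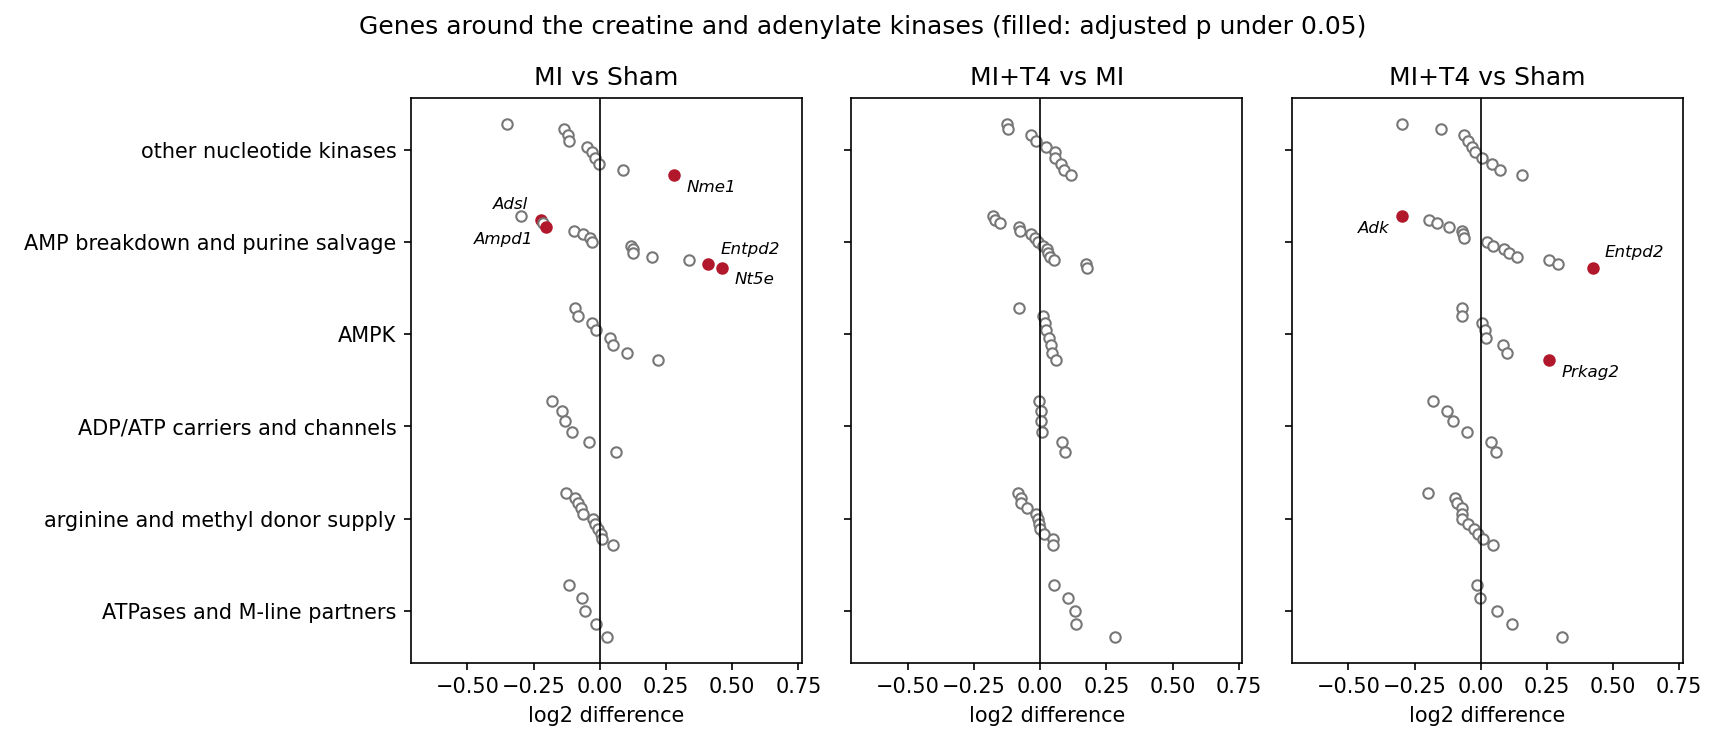
Log2 difference (horizontal axis) of 55 genes in 6 lists around the creatine and adenylate kinases in 3 comparisons, 1 point a gene, with genes of a list ordered from low to high. Filled, named points had an adjusted p under 0.05 in limma: 5 between MI and Sham, 0 between MI+T4 and MI, and 3 between MI+T4 and Sham.

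Between MI+T4 and MI rats, 0 of the 55 genes passed in limma (5 at an unadjusted p under 0.05, and 0 from rat means). Myom2, an M-line protein, differed by 0.28 on the log2 scale (adjusted p = 0.455), and Ampd2, another AMP deaminase, by 0.17 (adjusted p = 0.445). Between MI+T4 and Sham rats, 3 of the 55 passed (5.45%, where 1.26% of all probes passed). Entpd2 was 1.34 times the Sham mean (log2 0.42, adjusted p = 0.00455, 0.306 from rat means), with 10.68, 10.49, 10.54 and 10.42 in MI+T4 rats against the Sham values above, all of them lower. Prkag2 was 1.20 times the Sham mean (log2 0.26, adjusted p = 0.0368, 0.435 from rat means) and lost its call in 6 of 12 fits without 1 rat, with adjusted p up to 0.255 without MI+T4 replicate 7. Adk, adenosine kinase, which returns adenosine to AMP, was 0.815 times the Sham mean (log2 -0.30, adjusted p = 0.0225, 0.374 from rat means). Between MI and Sham rats Adk differed by -0.21 in limma without passing (adjusted p = 0.0759), and MI rats ran from 12.12 to 12.45. It measured 12.29, 12.41, 12.08 and 12.21 in MI+T4 rats, against 12.55, 12.69, 12.47 and 12.46 in Sham rats, without overlap, and lost its call without Sham replicate 1 (adjusted p = 0.0630) or 2 (0.107) or MI+T4 replicate 7 (0.151).

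The genes whose rat means ran most like those of the 4 genes called after MI were taken over all 12 rats, so the points share the group differences. For Ckb they were Pdgfra (Pearson r = 0.917), a receptor of fibroblasts and one of the markers above, Tax1bp3 (0.906) and Prr13 (0.894). For Ckm they were Gtpbp6 (0.946), Tomm40 (0.918), the pore of the mitochondrial protein import complex, and Hadha (0.905), of fatty acid oxidation. For Slc6a8 they were Dhrs11 (0.935), Txnrd3 (0.929) and Zc3hc1 (0.928). For Gamt they were Txnrd1 (0.922), cytosolic thioredoxin reductase, Fzd4 (0.912), a Wnt receptor, and Exoc3l4 (0.903). These are the highest values among all named probes, and no test was made of them.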

How the data were processed

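The log2 values used here were deposited by the authors, who stabilized the variance of the bead signals and normalized the arrays by robust splines, for 24 arrays (Illumina RatRef-12 BeadChips, 2 arrays a rat). The table states no scale, and log2 is read from the methods. The 48 columns of the other table, which holds unnormalized signals and detection p-values, carry BeadChip positions that no label ties to a sample. It was left out, and no detection filter was applied. Of 22523 probes, 13793 had 1 gene symbol, 8730 none and 0 several. The number of rats, 4 in each group, limits the precision.

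A model with 3 group means and the rat as a random block, after the study's methods, was fitted to all probes with limma 3.58.1 and statmod 1.5.0 under R 4.3.3, followed by eBayes and Benjamini-Hochberg adjustment within each comparison. Alternatives were rat means, the technical replicate number as block, each array alone, another variance prior and only the compared groups. Others were no dim probes (mean signal at or below the median probe), quantile normalization, a joint adjustment and nested F. Each rat was also left out, and the replicate number of the rat was used as block. A fit without 3 rats was chosen after seeing the data. Exact permutation tests were run over 70 assignments of 8 rats in scipy 1.17.1 (Python 3.11.15). Figures used matplotlib 3.10.9. The scripts were tested on simulated data.

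The members and lists were chosen with earlier results of these data known. Named were all members, up to 4 called genes of each list and comparison (otherwise the gene with the smallest p), and for each member called after MI the 3 named probes of other genes with the highest Pearson r. Ak4 and Adk after MI were named in addition, after their values were seen. Promoter sequences came from RefSeq (GRCr8).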

Additional observations from a re-analysis of the deposited data

Results flagged for a closer look

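In 39 groups of 4 rats (the 6 genes and the 7 listed genes that passed), 4 had 1 rat apart from the others beyond Dixon's 95% limit for the gap as a share of the group's range, which chance gives in about 1 of 20 groups. In Sham rats, replicate 1 was low in Ckb (11.32, a gap of 0.835 of the range) and in Slc6a8 (12.11, a gap of 0.968 of the range). Without Sham replicate 1, MI rats differed from Sham rats by 0.34 in Ckb and by -0.41 in Slc6a8 on the log2 scale. Sham replicate 4 was high in Entpd2 (10.28, a gap of 0.884 of the range), and MI replicate 7 was low in Gatm (7.61, a gap of 0.843 of the range).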

How the results depend on the processing

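The 6 calls in the creatine and adenylate kinase genes kept their direction under all alternatives tried, and none of the 12 uncalled differences passed under any. Counts are given for MI against Sham, MI+T4 against MI and MI+T4 against Sham in turn. With both arrays of a rat, 4, 0 and 2 of the 6 genes and 814, 0 and 283 of all probes were called. Rat means gave 0, 0 and 0 genes and 0, 0 and 1 probes, the arrays of technical replicate 1 alone 0, 0 and 0 genes and 0, 0 and 1 probes, and those of technical replicate 2 alone 0, 0 and 0 genes and 3, 0 and 1 probes. Ckm alone lost its call after MI with the technical replicate number as block, a trended prior or only the compared groups. The same held with dim probes left out, quantile normalization, a joint adjustment or nested F. Leaving out dim probes, which removes Gatm, ended the Ckb call between MI+T4 and Sham (1 gene and 173 probes). The compared groups alone gave 1 probe between MI+T4 and MI and 440 between MI+T4 and Sham, a trended prior gave 1 probe between MI+T4 and MI, a joint adjustment gave 74 and nested F gave 94, with 494 between MI and Sham. The cause was not tested.

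Leaving out 1 rat gave 3 to 4, 0 to 0 and 0 to 2 genes and 193 to 1574, 0 to 76 and 97 to 585 probes. After MI, 193 probes were called without MI replicate 8, 248 without 5, 1249 without 6 and 1574 without 7, and 431, 478 and 540 without Sham replicates 2, 3 and 4. Between MI+T4 and MI, 19 and 76 were called without MI replicates 6 and 7, and 14, 2 and 5 without MI+T4 replicates 5, 7 and 8. Between MI+T4 and Sham, 179, 182, 97 and 585 were called without MI+T4 replicates 5, 6, 7 and 8, and 181, 150, 168 and 180 without Sham replicates 1, 2, 3 and 4. Small uncalled differences turned: Ckb between MI+T4 and MI ran from -0.16 to 0.021, Gamt between MI+T4 and MI from -0.0062 to 0.081 and Ak3 between MI+T4 and Sham from -0.0097 to 0.069. In the fit without 3 rats (MI replicate 5, MI replicate 8 and MI+T4 replicate 7), 0, 0 and 1 genes and 86, 1 and 282 probes were called, and Gamt between MI+T4 and MI was -0.029. The exact permutation test was at its smallest p in 2, 0 and 2 genes, in 3, 0 and 1 with technical replicate 1 alone, and in 2, 1 and 1 with technical replicate 2 alone. MI+T4 and MI rats of 1 replicate number correlated at 0.111, 0.254, -0.534 and -0.484 in their deviations from the group means. MI+T4 replicates 5 and 6 were most like the MI rats of their own number, and 7 and 8 were most like MI replicates 8 and 7. With so few rats these values cannot decide whether the numbers pair the rats. With the replicate block on rat means, 0 genes and 0 probes passed between these groups. The mean of several probes of a gene could not be tried, since each gene had 1 probe.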
